A study of Mus musculus with 6 samples.

Results

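Dppa2, Dppa4, Dppa5a, Utf1, Fbxo15, Khdc3, Ooep, Spic and Sall4 are 9 genes of early embryos and pluripotent cells, and their mRNA levels were compared between mouse embryonic stem cells (ESCs) and epiblast-like cells (EpiLCs). They were taken by symbol from the 24736 genes of the expression table, and all 9 had enough counts to be tested. The libraries were 3 replicates of ESCs at 0 h and 3 replicates of EpiLCs at 48 h, all labelled wild-type and, by the methods of the study, from the XY HM1 TetON line that served as its WT cells. ESCs grew on feeder fibroblasts in medium with 10% serum and 1000 U/ml of the cytokine LIF, whereas EpiLCs were made by moving the cells to serum-free N2B27 with 10 ng/ml bFGF and 5 µM LGK974, an inhibitor of WNT secretion. Serum, LIF, feeders, growth factor, inhibitor and time all changed together and cannot be told apart. The cells come from 1 line, and in bulk RNA fewer cells expressing a gene and less RNA per cell cannot be told apart either.

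ESCs resemble the naive epiblast of the blastocyst, and EpiLCs resemble the epiblast after implantation, which has left the naive state and has not yet formed germ layers. Many genes first found as markers of the oocyte, cleavage embryo or inner cell mass are also transcribed in ESCs. Among them, DPPA2 and DPPA4 are partner proteins that bind chromatin, DPPA5A, KHDC3 and OOEP are related to each other through a KH-type RNA-binding fold, and UTF1 and FBXO15 are textbook targets of OCT4 and SOX2. SPIC is an ETS transcription factor best known from red pulp macrophages of the spleen, and SALL4 is a zinc-finger factor of pluripotent cells that works with OCT4 and the NuRD complex.

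Several of the genes lie next to each other in the genome (GENCODE annotation of GRCm38, the sequence of mm10). Dppa4 (chr16:48283733-48294237) and Dppa2 (chr16:48303908-48319723) are both on the plus strand, 9670 bases apart with 0 annotated genes between them. Dppa5a (chr9:78367052-78368177) and Ooep (chr9:78376109-78378725) are both on the minus strand, 7931 bases apart and again with 0 genes between them. Khdc3 (chr9:73101836-73104438, plus strand) is on the same chromosome as that pair but not beside it. Utf1 (chr7:139943789-139945112, plus strand), Spic (chr10:88674772-88685015, minus strand) and Sall4 (chr2:168748332-168767943, minus strand) stand apart from the others, as does Fbxo15.

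Promoter sequences were matched for 4 of the 9 genes, Utf1, Ooep, Khdc3 and Spic, from RefSeq on GRCm38.p6, and those of Dppa2, Dppa4, Dppa5a, Fbxo15 and Sall4 were not analysed here. They are shown as the 4 that were matched, and to set their CpG content side by side, Utf1 being higher and the others lower in EpiLCs. Each sequence runs 5′ to 3′ along the gene, from 250 bases before the RefSeq start to 50 bases after it, with every CpG dinucleotide in capitals. The windows are chr7:139943606-139943905 on the plus strand for Utf1, chr9:78378539-78378838 on the minus strand for Ooep, chr9:73102148-73102447 on the plus strand for Khdc3 and chr10:88682974-88683273 on the minus strand for Spic. These RefSeq starts lie inside the GENCODE spans given above, furthest from the GENCODE start for Spic and then Khdc3, and CpG and motif counts hold for the RefSeq starts only.
Utf1: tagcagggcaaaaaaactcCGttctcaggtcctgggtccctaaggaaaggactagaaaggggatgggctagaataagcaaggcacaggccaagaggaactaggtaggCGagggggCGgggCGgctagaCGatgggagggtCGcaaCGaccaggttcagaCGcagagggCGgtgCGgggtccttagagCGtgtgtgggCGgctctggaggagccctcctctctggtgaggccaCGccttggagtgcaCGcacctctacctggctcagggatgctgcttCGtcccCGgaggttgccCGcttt
Ooep: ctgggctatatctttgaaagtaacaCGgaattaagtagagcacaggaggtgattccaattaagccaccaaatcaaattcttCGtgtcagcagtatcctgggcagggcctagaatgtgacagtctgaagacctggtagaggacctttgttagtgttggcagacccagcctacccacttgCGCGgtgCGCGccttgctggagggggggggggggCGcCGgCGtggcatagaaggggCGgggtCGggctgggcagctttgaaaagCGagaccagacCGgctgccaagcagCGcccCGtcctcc
Khdc3: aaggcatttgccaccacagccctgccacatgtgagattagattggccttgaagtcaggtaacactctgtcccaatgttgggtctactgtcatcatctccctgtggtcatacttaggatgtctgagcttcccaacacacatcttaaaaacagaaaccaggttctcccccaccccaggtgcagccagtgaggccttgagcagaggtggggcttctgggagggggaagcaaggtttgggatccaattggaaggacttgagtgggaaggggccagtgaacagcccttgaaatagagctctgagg
Spic: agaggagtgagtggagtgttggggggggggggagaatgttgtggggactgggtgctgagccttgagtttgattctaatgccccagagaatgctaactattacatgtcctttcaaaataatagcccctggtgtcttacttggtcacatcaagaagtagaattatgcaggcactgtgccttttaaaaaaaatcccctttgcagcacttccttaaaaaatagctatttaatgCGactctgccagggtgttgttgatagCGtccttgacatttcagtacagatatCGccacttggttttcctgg
The Utf1 window held 17 CpG dinucleotides and the Ooep window 15, against a median of 7 over 32851 promoters of the same length. The Spic window held 3, and the Khdc3 window held 0, which was the case for 5.43% of all promoters. In the bases before the start alone, Utf1 had 14, Ooep 11, Spic 1 and Khdc3 0, against a median of 6. The GC content was 62% for Utf1, 58.3% for Ooep, 52.7% for Khdc3 and 45% for Spic.

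Motif letters were searched on both strands of the 4 windows. GGGCGG, the GC box bound by SP factors, was found 4 times in the Utf1 window, beginning 138, 133, 85 and 56 bases before the start, the first pair sharing a base, and once in the Ooep window, beginning 19 bases before the start. At least 1 copy was present in 35.7% of all promoters. The octamer ATGCAAAT of OCT4 had 0 matches in the 4 windows (1.74% of all promoters had one), as did the SOX core CATTGT (12.6%) and the E-box CACGTG (7.15%). The matches describe letters only, and the OCT4-SOX2 elements by which Utf1 and Fbxo15 became known are enhancers outside such windows.

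Across the 9 genes, 6 were lower in EpiLCs, 2 were higher and Dppa2 did not pass the threshold (edgeR quasi-likelihood test, adjusted p at most 0.05). Of all 14468 genes tested, 22.8% were lower and 22.6% were higher by the same rule. A decrease of more than 2-fold was found for 5 of the 9 genes, against 11.5% of all genes, and an increase of that size for 1 of them, against 8.78%. Khdc3 and Spic, with at most 5 counts in any EpiLC library, passed the filter through their ESC level and so had to differ. Both are included in the counts given here for the 9 genes. With at least 10 counts required in every library, Dppa5a, Fbxo15, Ooep and Sall4 were lower among the remaining 7 genes. Dppa4 and Utf1 were higher there and Dppa2 did not pass. The shares of all genes given here belong to the main filter only. The median log2 fold change of the 9 genes was -2.92, whereas that of all genes tested was -0.0017. The former includes Khdc3 and Spic, and the middle value of the remaining 7 genes was -0.27, that of Sall4. The TPM (a transcript abundance scaled for transcript length and library) of the groups did not overlap for 8 of the 9 genes, compared with 59.5% of all genes. Without overlap, 6 of them were lower and 2 were higher, against 25.6% and 33.8% of all genes. The genes thus fell into 3 sets by size of response, with Dppa5a, Fbxo15, Ooep, Khdc3 and Spic lower by more than 6-fold, Dppa2, Dppa4 and Sall4 within 1.5-fold of their ESC level, and Utf1 more than 2-fold higher. Without ESC replicate 1 the log2 fold change of Utf1 was 0.98, just under 2-fold. A decrease of more than 6-fold was seen in 4.08% of all genes, a share that is no test, since the cut came from the 9 genes.

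**Figure D1:**
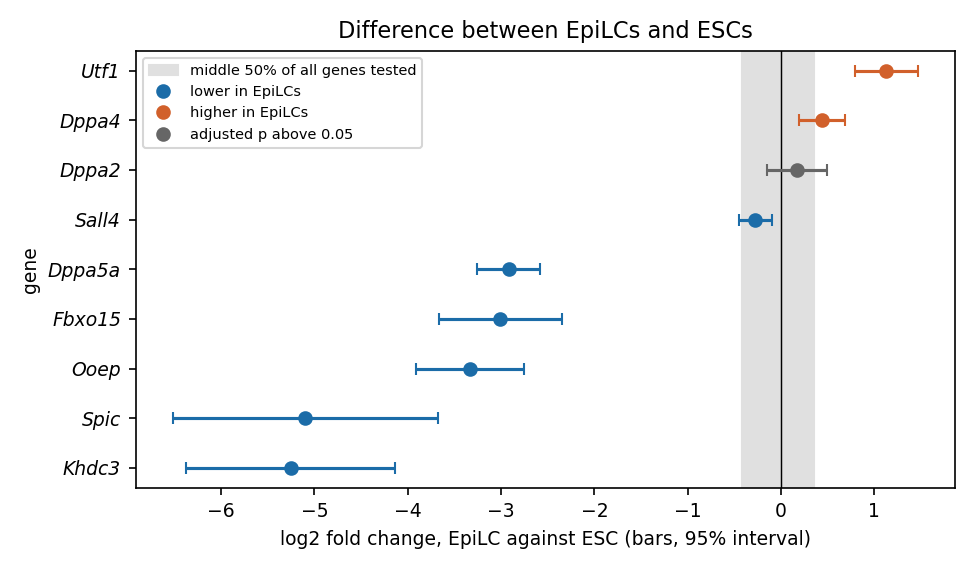
Log2 fold change of each of the 9 genes from ESC to EpiLC (x axis, log2 scale) from the fit to counts, with bars for the 95% confidence interval. The intervals of Khdc3, Spic, Ooep, Fbxo15 and Dppa5a lie wholly below -2, that of Dppa2 spans 0, and that of Utf1 lies between 0.80 and 1.46.

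Of the chromatin-binding pair, Dppa4 was moderately higher in EpiLCs, and its neighbour Dppa2 did not pass the threshold. Dppa2 measured 59.3, 81.7 and 69.9 TPM in ESC replicates 1, 2 and 3 and 71.4, 89.2 and 85.3 TPM in EpiLC replicates 1, 2 and 3. The groups overlapped, as the highest ESC library was above the lowest EpiLC library. Its log2 fold change was 0.17 (SE 0.14, 95% confidence interval -0.15 to 0.49, edgeR adjusted p = 0.337). Dppa4 measured 107, 122 and 134 TPM in the ESC libraries and 157, 183 and 169 TPM in the EpiLC libraries. Every EpiLC library was above every ESC library. The level of Dppa4 rose from 121 ± 13.8 to 169.9 ± 13.1 TPM (SD, n = 3 each), a log2 fold change of 0.44 (SE 0.10, interval 0.19 to 0.68, edgeR adjusted p = 0.0135). The increase missed the threshold without EpiLC replicate 2 (0.40, edgeR adjusted p = 0.0514). Within a library, Dppa4 was 1.80, 1.49 and 1.92 times the level of Dppa2 in ESCs and 2.20, 2.06 and 1.98 times in EpiLCs. The ratio was higher in each EpiLC library than in any ESC library, by 0.27 on the log2 scale (exact permutation test, two-sided, p = 0.1, the smallest that 3 against 3 libraries allow).

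DPPA2 and DPPA4 are known to activate genes of the 2-cell embryo, among them the Zscan4 cluster, in the rare ESCs that enter a 2-cell-like state. The Zscan4 genes were low and uneven in ESCs. The summed level of Zscan4a, Zscan4b, Zscan4c, Zscan4d and Zscan4f was 28.3, 21.8 and 9.97 TPM in the ESC libraries and 1.92, 1.87 and 2.15 TPM in the EpiLC libraries. All EpiLC libraries were below all ESC libraries, and ESC replicate 3 lay well below the others of its group. Among the ESC libraries, Dppa4 was highest in replicate 3 and Dppa2 in replicate 2. A relation of either to the Zscan4 sum was not tested. The mean sum went from 20.0 ± 9.29 to 1.98 ± 0.149 TPM (SD, n = 3 each), a ratio of 10.1. All 5 were lower in EpiLCs in the fit to counts, with log2 fold changes from -2.93 for Zscan4a (SE 0.55, edgeR adjusted p = 0.00537) to -4.23 for Zscan4d (SE 0.82, adjusted p = 0.00633; -5.02 without EpiLC replicate 1). Tcstv3, another gene of the 2-cell stage, had 54.5, 13.4 and 16.2 expected counts in ESCs and 0, 0 and 1.13 in EpiLCs, and it was lower too (edgeR adjusted p = 0.00335). Of the 20 genes listed for this state, 18 were found by symbol and 6 had enough counts for the test. Most of these passed the filter through their ESC level, so that their shared direction is no evidence of its own, and with at least 10 counts required in every library 2 remained. The Zscan4 copies are near-identical and RSEM divides reads between them, so their separate values are uncertain.

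**Figure D2:**
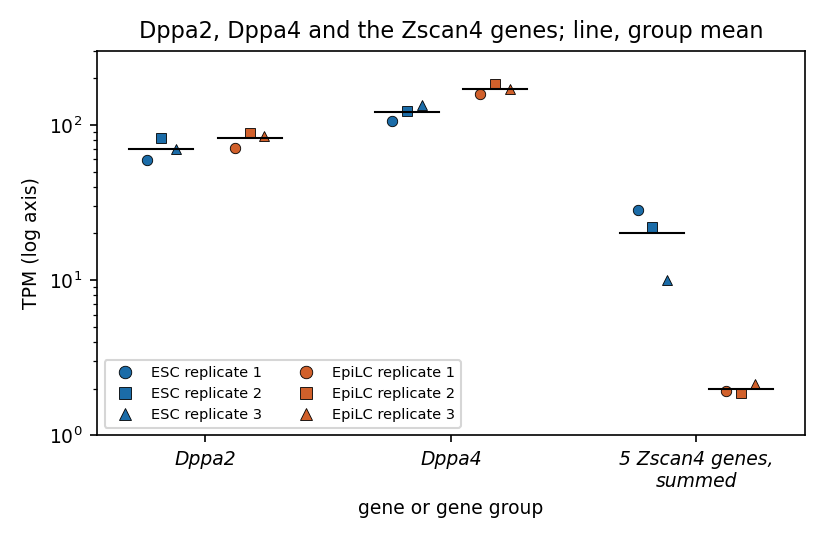
TPM (y axis, log scale) of Dppa2, Dppa4 and the sum of 5 Zscan4 genes in each library, with a line at the group mean. Dppa4 lies higher in the 3 EpiLC libraries than in the ESC libraries and Dppa2 overlaps between groups, whereas the Zscan4 sum lies between 9.97 and 28.3 TPM in ESCs and between 1.87 and 2.15 TPM in EpiLCs.

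Dppa3 (Stella), which protects the maternal genome from demethylation and shares its name but not its structure with the others, was measured at 46.2, 40.3 and 129 TPM in ESCs and 7.43, 9.91 and 25.8 TPM in EpiLCs. Its replicate 3 was the highest in both groups and the groups did not overlap. Its log2 fold change was -2.38 (SE 0.63, edgeR adjusted p = 0.0204). The call was lost without EpiLC replicate 1 (adjusted p = 0.0697) or EpiLC replicate 2 (0.0748), and the log2 fold change was -1.62 without ESC replicate 3 and -3.11 without EpiLC replicate 3. Dppa1 was at 0 in all 6 libraries. Of the 5 genes named Dppa, Dppa3 and Dppa5a were therefore lower, Dppa4 was higher, Dppa2 did not pass and Dppa1 was not tested.

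Dppa5a, Ooep and Khdc3, the KH-type genes, all fell. Dppa5a, an RNA-binding protein abundant in ESCs and germ cells, was the highest of the 9 genes in ESCs, at 1606, 1795 and 2166 TPM, and measured 223, 269 and 272 TPM in EpiLCs. The lowest ESC library was far above the highest EpiLC library. It fell by 2.92 on the log2 scale (SE 0.14, interval -3.25 to -2.58, edgeR adjusted p = 5.24e-05), so that EpiLCs held 255 ± 27.1 TPM where ESCs held 1856 ± 285 TPM (SD, n = 3 each). Even so, Dppa5a in EpiLCs stood above 97.5% of all genes in the table. Its expected counts were not whole in 83.3% of the libraries, and the annotation holds 2 unprocessed pseudogenes, Dppa5b and Dppa5c, with which reads may be shared.

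Ooep, a protein of the subcortical maternal complex of oocytes, measured 46.3, 45.2 and 73.0 TPM in ESCs and 5.25, 5.14 and 6.53 TPM in EpiLCs. ESC replicate 3 was the highest of the 6 libraries and the groups were wide apart. The log2 fold change was -3.34 (SE 0.24, interval -3.92 to -2.76, edgeR adjusted p = 1.68e-04). Khdc3 (also Filia or Ecat1), another protein of that complex, which guards genome stability in ESCs, measured 4.39, 5.31 and 9.31 TPM in ESCs and 0.26, 0.19 and 0.08 TPM in EpiLCs. These levels correspond to 67, 66 and 193 counts in ESCs and 5, 5 and 2 counts in EpiLCs. Khdc3 was thus near the limit of detection in EpiLCs, in each of the 3 libraries. Its log2 fold change was -5.26 (SE 0.47, interval -6.38 to -4.13, edgeR adjusted p = 3.33e-04). From the pooled counts, 326 against 12, the ratio of ESC to EpiLC was 40.1, with an exact 95% interval of 22.6 to 78.4 that covers counting error only. Khdc3 shares 790 exonic bases with Gm20509 on the same strand in GENCODE, so part of its signal may belong to that gene.

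Ratios between the 3 KH-type genes were also compared within libraries. The level of Dppa5a was 34.7, 39.7 and 29.7 times that of its neighbour Ooep in ESCs and 42.6, 52.3 and 41.6 times in EpiLCs. The log2 ratio was higher by 0.39 in EpiLCs, without overlap, whereas the intervals of the fitted changes of both genes overlapped. The log2 ratio of Khdc3 to Ooep was -3.40, -3.09 and -2.97 in ESCs and -4.34, -4.76 and -6.35 in EpiLCs. It was lower by 2.00 in EpiLCs and by 1.39 without EpiLC replicate 3, where Khdc3 had 2 counts. For both ratios the exact permutation test gave p = 0.1, which is the smallest it can give.

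Most of the other genes of this group were sparse, Zbed3 being the exception. Khdc1a, Khdc1b and Khdc1c, further relatives, were at most at 0.16 TPM in any library and were not tested. Of the listed partners of the oocyte complex, Nlrp5 and Padi6 were at most at 0.10 TPM and Nlrp2 was at 0 throughout. Tle6, which binds OOEP and NLRP5 in the oocyte, measured 2.25, 3.11 and 1.76 TPM in ESCs and 0.62, 0.49 and 0.64 TPM in EpiLCs, and was lower (log2 fold change -2.08, SE 0.31, edgeR adjusted p = 0.00214). Nlrp4f was lower as well, from 2.07 ± 0.615 to 0.54 ± 0.0872 TPM (SD, n = 3 each; log2 fold change -1.97, edgeR adjusted p = 0.00239). Zbed3 was higher, with 21.0, 22.2 and 21.3 TPM in ESCs and 30.7, 28.9 and 30.7 TPM in EpiLCs (log2 fold change 0.45, edgeR adjusted p = 0.00533). Among the 6 partners, then, 2 were lower, 1 was higher and 3 were not tested. The 7 oocyte markers, which would report oocyte-like cells, summed to between 3.84 and 7.56 TPM in ESCs and between 1.02 and 1.99 TPM in EpiLCs. Zp3 and Gdf9 were lower in EpiLCs, the latter at no more than 0.76 TPM in any library, Zp1, Zp2, Bmp15 and Figla were at 0.45 TPM or less, and Oosp1 was at 0. Without ESC replicate 1, EpiLC replicate 1 or EpiLC replicate 2, or with at least 10 counts required in every library, 1 of the markers was lower, and Gdf9 had passed the filter through its ESC level. The part of such transcripts in the decrease of Ooep and Khdc3 was not tested.

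**Figure D3:**
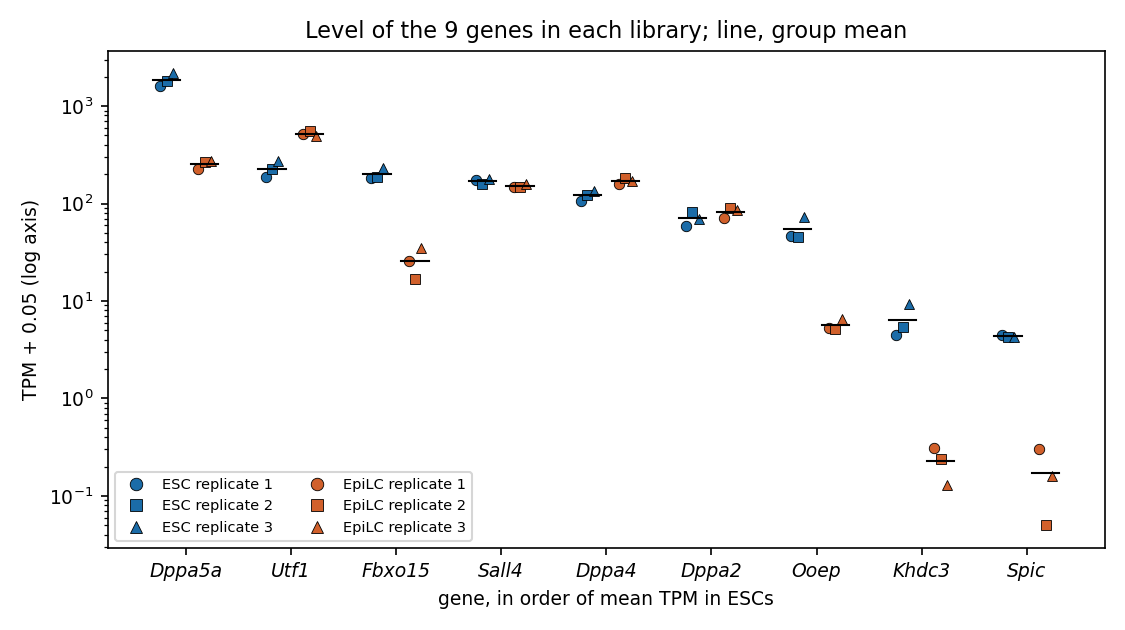
TPM of the 9 genes (y axis, log scale) in each ESC and EpiLC library, with a line at each group mean. Dppa5a, Fbxo15, Ooep, Khdc3 and Spic lie lower in every EpiLC library, Utf1 and Dppa4 lie higher, and Sall4 is lower by a small margin.

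Utf1 and Fbxo15, a pair of targets of OCT4 and SOX2, moved in opposite directions. Utf1, a chromatin-associated factor of pluripotent cells, measured 186, 226 and 273 TPM in ESCs and 512, 556 and 489 TPM in EpiLCs. The groups were clearly apart, and Utf1 became the highest of the 9 genes. It rose by 1.13 on the log2 scale (SE 0.14, interval 0.80 to 1.46, edgeR adjusted p = 0.00108), which is 2.19-fold. Fbxo15, an F-box protein whose locus carried the reporter in early reprogramming experiments, measured 181, 187 and 234 TPM in ESCs and 25.6, 16.7 and 35.2 TPM in EpiLCs. All EpiLC libraries were far below the ESC libraries. Its log2 fold change was -3.01 (SE 0.28, interval -3.67 to -2.35, edgeR adjusted p = 3.68e-04), which is 8.05-fold lower.

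In ESCs both genes were at nearly the same level in each library, the ratio of Utf1 to Fbxo15 being 1.02, 1.21 and 1.17. In EpiLCs the ratio was 20.0, 33.2 and 13.9. The log2 ratio was higher by 4.21 in EpiLCs, the largest shift of the 5 ratios computed (exact permutation test, two-sided, p = 0.1, the smallest it can give). Of the 7 targets of OCT4 and SOX2 listed, Nanog, Lefty1, Sox2 and Fbxo15 were lower, Utf1 was higher, and Fgf4 and Pou5f1 did not pass the threshold. The OCT4 gene Pou5f1 measured 1237, 1351 and 1418 TPM in ESCs and 1425, 1574 and 1355 TPM in EpiLCs, which overlapped (log2 fold change 0.07, interval -0.12 to 0.26, edgeR adjusted p = 0.496). Sox2 measured 261, 281 and 385 TPM in ESCs and 151, 135 and 146 TPM in EpiLCs. It was lower in each EpiLC library (log2 fold change -1.15, SE 0.15, edgeR adjusted p = 0.00146). Lefty1 fell by 3.36 on the log2 scale (edgeR adjusted p = 0.00425; -4.27 without EpiLC replicate 3), and Fgf4 had a log2 fold change of -0.34 (interval -0.80 to 0.12, adjusted p = 0.189).

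FBXO15 acts as the substrate-binding part of an SCF ubiquitin ligase, whose common parts are SKP1, CUL1 and RBX1. Their genes moved little. Cul1 was 128, 126 and 106 TPM in ESCs and 160, 161 and 173 TPM in EpiLCs and was higher (log2 fold change 0.41, edgeR adjusted p = 0.00708). Skp1a had a log2 fold change of -0.17 (edgeR adjusted p = 0.0397), a call that was lost under 10 of the 13 alternative settings, among them the omission of any library but ESC replicate 2. Rbx1 had a log2 fold change of 0.18 (edgeR adjusted p = 0.0562), and it passed the threshold in 6 of the 13 alternatives, namely upper-quartile normalization, DESeq2, at least 10 counts in every library, both limma fits and the omission of ESC replicate 2 (adjusted p from 0.0163 to 0.0494). None of these came near the size of the decrease of Fbxo15.

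**Figure D4:**
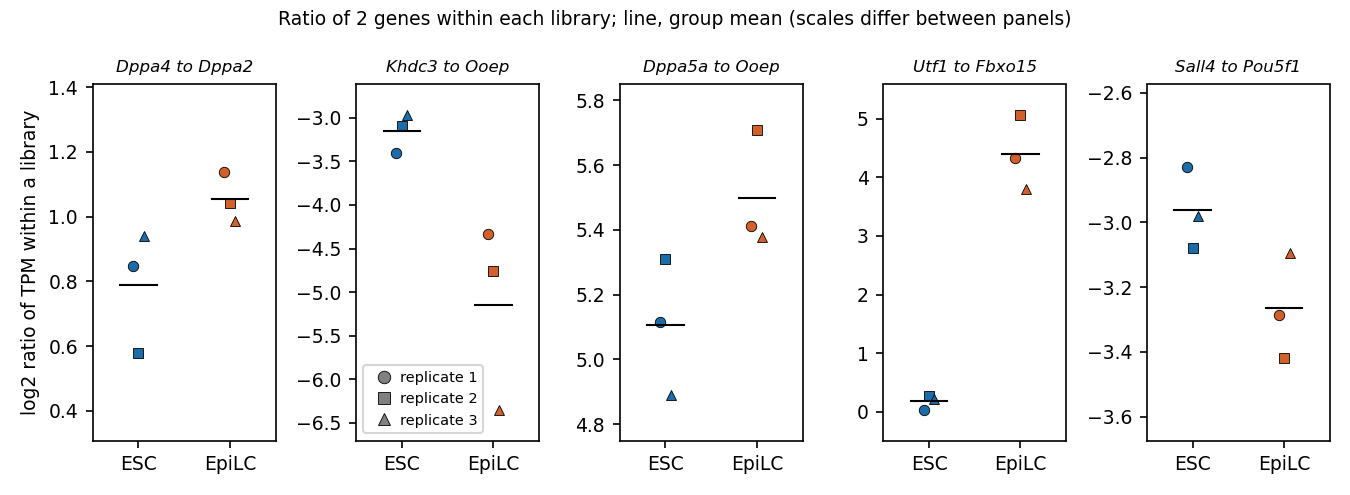
Log2 ratio of the TPM of a pair of genes within each library (y axis, separate scales), for ESC (blue) and EpiLC (orange) replicates, with a line at the group mean. The groups do not overlap in any of the 5 panels, and the shift is largest for Utf1 to Fbxo15, from about 0.18 to 4.39. The gap is narrow for Dppa4 to Dppa2, with 0.940 in ESC replicate 3 and 0.986 in EpiLC replicate 3. The share of other gene pairs without overlap was not computed, and 59.5% of single genes tested had none in TPM.

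Spic was low in ESCs and nearly lost in EpiLCs. It measured 4.44, 4.25 and 4.27 TPM in ESCs and 0.25, 0 and 0.11 TPM in EpiLCs, which correspond to 56, 41 and 70 counts and to 5, 0 and 2 counts. The ESC libraries were almost equal, and a count of 0 in EpiLC replicate 2 allows a level of up to 0.0883 CPM (counts scaled to the library total). The log2 fold change was -5.10 (SE 0.60, interval -6.52 to -3.68, edgeR adjusted p = 8.71e-04). It was -6.14 without EpiLC replicate 1, which held 5 of the 7 EpiLC counts. The pooled counts of 167 and 7 gave a ratio of 35.2, with an exact 95% counting interval of 16.7 to 88.9. Its relatives of the SPI family, Spi1 and Spib, factors of blood cells, were at 1.04 TPM or less in every library, and neither passed the threshold (log2 fold change 0.45, edgeR adjusted p = 0.527, and -0.98, adjusted p = 0.110).

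Macrophages are the cells in which SPIC is best known, and the 7 listed macrophage markers differed in level. Adgre1 was at 0 in all libraries, Ptprc was at 0.12 TPM or less and Csf1r at 0.19 TPM or less. Cd68 measured 12.2, 16.2 and 12.7 TPM in ESCs and 7.66, 7.76 and 5.21 TPM in EpiLCs. Vcam1 measured 1.31, 4.57 and 0.44 TPM in ESCs and 0.35 TPM or less in EpiLCs. The sum of the 7 macrophage markers lay between 174 and 261 TPM in ESCs and between 147 and 151 TPM in EpiLCs. Most of it was Hmox1, at 192 ± 41.5 and 141 ± 2.01 TPM (SD, n = 3 each), a heme-degrading enzyme that many cell types express. Of the 4 markers tested, Cd68, Vcam1 and Hmox1 were lower and 0 were higher, and 1 was lower without EpiLC replicate 1 or replicate 3.

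Sall4 differed little between the groups. It measured 174, 160 and 180 TPM in ESCs and 146, 147 and 159 TPM in EpiLCs. The highest EpiLC library was just below the lowest ESC library. The log2 fold change was -0.27 (SE 0.07, interval -0.45 to -0.10, edgeR adjusted p = 0.0229), a 1.21-fold decrease. It passed the threshold in 7 of 13 alternatives and was lost with upper-quartile normalization, with limma on log2(TPM + 0.1), or without ESC replicate 1, ESC replicate 3, EpiLC replicate 1 or EpiLC replicate 2 (adjusted p from 0.05004 to 0.102). The ratio of Sall4 to Pou5f1 within libraries was lower by 0.30 on the log2 scale in EpiLCs, without overlap (exact permutation test, two-sided, p = 0.1, the smallest it can give).

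The other genes of the SALL family differed in their pattern. Sall2 measured 9.36, 7.97 and 8.55 TPM in ESCs and 112, 107 and 100.1 TPM in EpiLCs. The groups were more than 10-fold apart and each was tight. Sall2 rose by 3.61 on the log2 scale (SE 0.087, edgeR adjusted p = 6.45e-06), or 12.2-fold. Sall1 measured 84.1, 76.5 and 117 TPM in ESCs and 112, 109.9 and 126 TPM in EpiLCs, with ESC replicate 3 among the EpiLC values (log2 fold change 0.27, adjusted p = 0.213). Without ESC replicate 3 it was higher in EpiLCs (0.49, adjusted p = 0.00718). Sall3 was at 5.40 TPM or less in each library and did not pass (log2 fold change -0.79, adjusted p = 0.181). In EpiLCs, Sall4, Sall1 and Sall2 were therefore all above 100 TPM, whereas in ESCs Sall2 was at 8.63 ± 0.698 TPM (SD, n = 3).

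**Figure D5:**
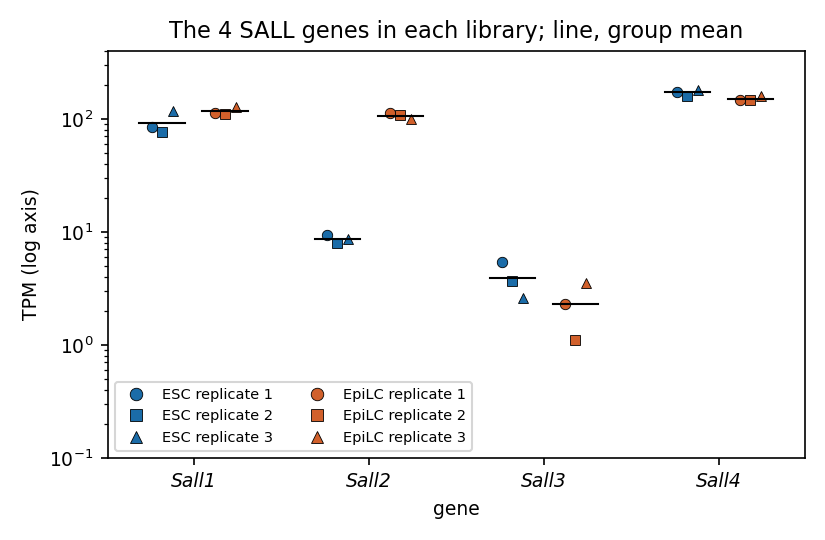
TPM (y axis, log scale) of the 4 SALL genes in each library, with a line at the group mean. Sall2 moves from between 7.97 and 9.36 TPM in ESCs to between 100.1 and 112 TPM in EpiLCs, Sall4 is slightly lower, and Sall1 and Sall3 overlap between groups.

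The order of the 9 genes by TPM changed between the groups. In ESCs it ran from Dppa5a through Utf1, Fbxo15, Sall4, Dppa4, Dppa2, Ooep and Khdc3 to Spic, with a ratio of 429.5 between the highest and the lowest mean. The ranges of neighbours overlapped for Utf1 and Fbxo15, for Dppa2 and Ooep and for Khdc3 and Spic. In EpiLCs the order was Utf1, Dppa5a, Dppa4, Sall4, Dppa2, Fbxo15, Ooep, Khdc3 and Spic, and the ranges of Dppa4 and Sall4 and of Khdc3 and Spic overlapped. Fbxo15 thus moved from the third place to the sixth, below Dppa2. Among all genes in the table, Fbxo15 stood above 96.7% in ESCs and 78.1% in EpiLCs, and Ooep above 87.4% and 60.6%.

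Dppa5a made up 68.4 ± 0.546% of the summed TPM of the 9 genes in ESCs and 21.1 ± 1.40% in EpiLCs (SD, n = 3 each). Utf1 made up 8.38 ± 0.463% and 43.0 ± 2.44%. The sum itself was 2368, 2627 and 3142 TPM in the ESC libraries and 1142, 1266 and 1216 TPM in the EpiLC libraries. Every EpiLC sum was below every ESC sum, although Utf1 and Dppa4 were higher.

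Of the 11 genes listed as transcripts associated with ES cells, a list that holds 5 of the 9 genes, 7 were lower, 1 was higher and 3 did not pass. The lower genes were Dppa5a, Khdc3, Fbxo15, Nanog, Sox15, Dnmt3l and Gdf3, and the higher one was Dppa4. Nanog, a core factor of naive cells, measured 310, 290 and 372 TPM in ESCs and 7.72, 5.95 and 22.5 TPM in EpiLCs (log2 fold change -4.81, edgeR adjusted p = 7.03e-04; -5.65 without EpiLC replicate 3). Eras, a RAS protein of ESCs, had a log2 fold change of 0.02 (interval -0.52 to 0.55, adjusted p = 0.955), and L1td1, an RNA-binding protein, one of 0.23 (interval 0.01 to 0.46, adjusted p = 0.0811). L1td1 passed the threshold with the replicate block (adjusted p = 0.0498), with limma on log2(TPM + 1) or log2(TPM + 0.1) (0.0374 and 0.0353) and without ESC replicate 2 (0.0146). Among 7 partners of the pluripotency network, 6 were lower, and Pou5f1 did not pass. Klf4, Esrrb, Tcl1 and Zfp42 were lower by 6.53, 6.44, 5.74 and 4.40 on the log2 scale, a range that includes the changes of Khdc3 and Spic.

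The gene with the most similar profile was found for each member among 9201 others with a mean of at least 10 CPM, as the smallest root mean square distance between centred log2 CPM over the 6 libraries. For Dppa5a it was Rfx2 (distance 0.107, log2 fold change -3.08), for Ooep Triml1 (0.15, -3.43) and for Fbxo15 the glucose transporter gene Slc2a3 (0.0960, -2.95). Khdc3 was nearest to Lrrc34 (0.199, -4.59) and Spic to Pcsk5 (0.224, -4.49), the largest distances of the 9. Both lay below the 10 CPM asked of the others, at 4.82 and 2.47 CPM in ESCs, so genes of their own level were not searched. For Utf1 the nearest was Carmil2 (0.0549), for Dppa4 Pisd-ps1 (0.0405), for Dppa2 2410002F23Rik (0.0739) and for Sall4 Sarnp (0.0237). These values describe 6 points that share libraries and groups.

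Depth and the markers of other cell types were as follows. Totals of expected counts lay between 16967741 and 35096210, at which 3 counts stand for between 0.0855 and 0.177 CPM. As a check of the cell labels, all 5 EpiLC markers (Fgf5, Otx2, Pou3f1, Dnmt3b and Sox3) were higher in EpiLCs and 5 of 6 markers of pluripotent cells were lower, all but Pou5f1. By the methods of the study, feeder cells were depleted by letting them attach to plastic before differentiation began. The 14 fibroblast markers, which would report remaining feeder cells, summed to 320, 1560 and 113 TPM in ESC replicates 1, 2 and 3 and to between 88.3 and 95.02 TPM in EpiLCs. Of them 12 were tested, 6 were lower and 0 were higher in EpiLCs. Of the same markers 2 were lower without EpiLC replicate 1 or replicate 3, and 1 was higher without ESC replicate 2. Without ESC replicate 2, where fibroblast markers were highest, the log2 fold change was -5.36 for Khdc3, -5.12 for Spic and -3.46 for Ooep. It was -3.06 for Fbxo15, -2.95 for Dppa5a, -0.32 for Sall4, 0.29 for Dppa2, 0.44 for Dppa4 and 1.12 for Utf1. ESC replicate 3 was the highest ESC library for 7 of the 9 genes, compared with 33.9% of all genes with a mean of at least 10 counts. The 6 primitive endoderm markers summed to between 32.4 and 56.1 TPM in ESCs and 10.1 and 10.5 TPM in EpiLCs, with 4 lower and 0 higher, and Gata4 and Gata6, their defining factors, were among the lower. The 5 germ cell markers summed to between 90.8 and 214 TPM in ESCs and 108 and 121 TPM in EpiLCs, with Ddx4 and Taf7l higher and Sycp3 lower. The call of Sycp3 was lost with the replicate block, with both limma fits and when any library but ESC replicate 2 was left out. With at least 10 counts required in every library, 1 of these markers was higher. The part of these other cells in the changes of the 9 genes was not tested.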

How the data were processed

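PolyA RNA was sequenced from 3 ESC and 3 EpiLC libraries. The culture methods of the study give 72 h for EpiLCs. Its results give 48 h and the sample titles read D2, so 48 h is used here. The authors trimmed reads with cutadapt 1.16, aligned them to mm10 with STAR 2.5.2a and quantified RefSeq genes by strand with RSEM 1.3.0. They deposited RSEM expected counts, unnormalized, in which reads mapping to several genes are divided between them. The authors also deposited TPM, scaled for transcript length and library.

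Expected counts were rounded to whole numbers and tested in R 4.3.3 with edgeR 4.0.16 (quasi-likelihood test, TMM factors from 0.979 to 1.02, filterByExpr, 14468 of 24736 genes), with Benjamini-Hochberg adjustment over all genes tested and a threshold of 0.05. The labels call the replicates biological and name no shared batch or culture. Fold changes are from this fit and levels are TPM. Within-library ratios of TPM for 5 pairs were compared with exact permutation tests. Counting intervals and the floor of 3 counts cover counting error only. Alternatives were upper-quartile normalization, DESeq2 1.42.0, at least 10 counts in every library or no filter, a replicate block, limma 3.58.1 on log2(TPM + 1) and log2(TPM + 0.1), ratios from counts, promoters cut at the start, and leaving out each library. The fit was tested on simulated data.

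The 9 genes and all lists were chosen with earlier results of these data known. The lists comprise partners of the oocyte complex, KH-type relatives, 2-cell-like genes, genes named Dppa, ES cell transcripts, OCT4-SOX2 targets, SALL, SPI and SCF genes, pluripotency partners, and markers of pluripotent cells, EpiLCs, fibroblasts, oocytes, macrophages, primitive endoderm and germ cells. The text names the 9 genes, the gene nearest to each in profile, and list genes.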

Additional observations from a re-analysis of the deposited data

How the results depend on the processing

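The 9 genes kept the direction of their change under every alternative run, and Dppa5a, Utf1, Fbxo15, Khdc3, Ooep and Spic also kept their side of the threshold wherever they were tested. Khdc3 and Spic had too few counts with at least 10 required in every library and gave no value there. Sall4 missed the threshold with upper-quartile normalization (-0.25, edgeR adjusted p = 0.0521) and with limma on log2(TPM + 0.1) (-0.18, adjusted p = 0.05004). Leaving out libraries gave log2 fold changes of -0.32 to -0.22 for Sall4 and of 0.34 to 0.54 for Dppa4, 5 to 6 of the 9 genes lower and 1 to 2 higher, and 2100 to 3609 lower and 2144 to 3572 higher genes in all. The lowest of these counts of all genes came without EpiLC replicate 1, which left 2 libraries in that group. Limma on log2(TPM + 1), a scale that understates changes of low genes, gave -2.59 for Khdc3 and -2.25 for Spic. Genes close to 0 change turned sign when a library was left out, Eras (range -0.14 to 0.19, below 0 without ESC replicate 1, EpiLC replicate 1 or EpiLC replicate 3) and Pou5f1 (range -0.0064 to 0.13, below 0 without ESC replicate 1). The cause of these shifts was not tested. At these depths changes of Khdc3 and Spic in EpiLCs rest on 12 and 7 counts.

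Replicate numbers are shared by both groups, but the correlations of deviations for numbers 1, 2 and 3 were 0.00668, 0.186 and 0.17, so they were not taken as pairs. With the replicate block, 6 of the 9 genes were lower and 2 higher as before, and 3106 of all genes were lower and 2979 higher, against 3304 and 3267 without it.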
